A study of Nannochloropsis oceanica with 6 samples.

Results

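The genes described here are a mitochondrial D-lactate dehydrogenase and a pair of glyoxalases of the marine oil-forming alga Nannochloropsis oceanica IMET1. They were chosen by gene identifier and annotated name, and are DLD (NO16G02360), GLO1 (NO20G00020) and glod-4 (NO03G04960), 3 of 10481 genes in the deposited tables. RNA was sequenced from 3 cultures under nitrogen repletion (NR, complete f/2 medium) and 3 under nitrogen deprivation (ND, f/2 medium without nitrogen). Before that the cells had grown at 25 °C in a column reactor bubbled with 1.5% CO2. All 6 cultures, of 800 mL each, were inoculated with washed cells of logarithmic growth at an optical density of 2.5, kept in continuous light of 50 µmol per square metre and second and harvested at 72 h, and no genotype or agent other than the missing nitrogen distinguished them. The comparison bears on the supply and removal of lactate, in a study whose title names the lactylome, the set of proteins that carry lactyl groups.

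Methylglyoxal is a reactive by-product that forms from the triose phosphates of glycolysis and the Calvin cycle. Glyoxalase I (lactoylglutathione lyase) converts its adduct with glutathione into S-lactoylglutathione, and glyoxalase II (hydroxyacylglutathione hydrolase) splits that thioester into D-lactate and free glutathione. Mitochondrial D-lactate dehydrogenase of plants and yeast then oxidises D-lactate to pyruvate and passes the electrons to cytochrome c, so glyoxalases stand on the supply side of D-lactate and this dehydrogenase on the removal side.

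In nitrogen-deprived cultures the DLD transcript fell to slightly less than the level of GLO1, while in fed cultures it was well above it. By FPKM, GLO1 was above DLD in every ND culture, but the difference was small and the order itself was not tested. The counting intervals of both genes overlapped within each ND library. In ND cultures 2 and 3 GLO1 apparently shared reads with a neighbouring model. With trimmed-mean scaling between libraries, DLD fell 2.4 times and GLO1 stood 1.13 times higher, at the edge of the test. By mean FPKM, which is scaled to library totals, ND over NR was 0.523 for DLD and 1.42 for GLO1. The level of glod-4 moved by less than 1.2 times in a direction that depended on the scaling between libraries. The ratio of GLO1 to DLD within a culture, which needs no such scaling, was 0.396 to 0.498 in NR and 1.15 to 1.19 in ND.

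Library totals ran from 3972986 to 5693513 estimated counts, and counting error alone came to 1.9% to 6.4% of a value of these genes in a single library. Nothing in the labels ties cultures of the same number to each other. The trimmed-mean scaling factors were 0.89 to 0.908 in NR and 1.111 to 1.123 in ND. That scaling matters for small changes. Over all tested genes the median log2 change was 0.02 with it and 0.34 when only library totals were used, and the calls were 3333 higher and 3312 lower with it and 5075 and 2149 without it. The nitrate reductase NIA (NO14G02460), picked as a check of the labels, had 29.1 ± 4.17 normalised CPM in NR and 665 ± 7.5 in ND (SD, n = 3). No direction was stated for this check, so the values show only that the groups differ in this gene. Levels per gene length are given below as the authors' FPKM, which are scaled to library totals, and tests as log2 fold changes with their SE, ND relative to NR, in edgeR with trimmed-mean scaling. Levels of a culture cannot tell fewer cells that express a gene from less RNA per cell.

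DLD, described in the deposited annotation after the Arabidopsis mitochondrial enzyme, had FPKM levels of 92.5, 95.1 and 86.7 in NR cultures 1 to 3. In ND cultures 1 to 3 the FPKM levels were 46.8, 47.7 and 49.0. Every deprived culture thus lay far below every fed culture, and the spread within a condition was small. Of all tested genes, 23.0% likewise had every ND culture below every NR culture in FPKM. The mean FPKM was 91.4 ± 4.32 in NR and 47.8 ± 1.15 in ND (SD, n = 3). Ranked by TPM, DLD lay above 86.4% to 88.0% of all genes in NR and above 70.0% to 71.0% in ND.

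The fall of DLD was -1.26 ± 0.07 on the log2 scale (edgeR quasi-likelihood test, adjusted p = 5.04e-13). In normalised CPM it went from 177 ± 9.96 to 73.6 ± 1.41. Such calls were common, since 71.2% of 9329 tested genes were called and 35.5% were called lower, while 12.5% were called lower by at least 2 times. Ordered by p-value over all tested genes, DLD was at rank 666. The authors' deposited table of genes changed by more than 2 times lists DLD with a log2 fold change of -1.28 and an FDR of 3.94e-47, and lists neither GLO1 nor glod-4. With library totals alone the change of DLD was -0.95, still with an adjusted p of 1.01e-10 in edgeR.

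GLO1, described after the glyoxalase I of baker's yeast, had FPKM levels of 38.2, 37.7 and 43.1 in NR cultures 1 to 3. In ND cultures 1 to 3 the FPKM levels were 55.7, 55.0 and 57.8. The groups did not overlap in FPKM, and NR culture 3 was the fed culture closest to the deprived ones. Non-overlap of FPKM was itself frequent, at 78.8% of tested genes, with 55.7% higher and 23.0% lower in ND. GLO1 lay above 68.3% to 72.0% of all genes by TPM in NR and above 74.96% to 76.2% in ND.

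On the trimmed-mean scale the rise of GLO1 was small, from 71.4 ± 4.72 to 80.4 ± 1.83 normalised CPM, or +0.17 ± 0.08 log2 (edgeR adjusted p = 0.0484), where 35.7% of tested genes were called higher. The call was lost when any culture except NR culture 3 was left out. The adjusted p was then 0.14 without NR culture 1, 0.143 without NR culture 2, and 0.0843, 0.0818 and 0.153 without ND cultures 1, 2 and 3 (edgeR). It was also lost with RLE factors (adjusted p = 0.0698), with DESeq2 (0.201) and after thinning to equal depth (0.149). With library totals alone the change was +0.49, adjusted p = 1.20e-05, against 54.4% of genes called higher in that fit, 23.0% lower and 77.4% in either direction.

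The counts of GLO1 were whole numbers in 4 libraries and ended in a fraction in ND cultures 2 and 3, at 436.46 and 526.46. The next gene model in order of identifiers, NCOA7 (NO20G00030), had 2097.54 and 2418.54 there, and both pairs sum to whole numbers, 2534 and 2945. Part of the reads was thus apparently divided between these models. NCOA7 changed by +1.48 ± 0.06, and the previous model, NO20G00010, which has no description, changed by -1.94 ± 0.05. The strand used for counting is not stated in the sources used here, reads of overlapping models could then not be told apart, and the value of GLO1 is uncertain to that extent.

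The transcript of glod-4 was the most abundant of the 3 in every culture. Its nearest annotated protein is the glyoxalase I of Caenorhabditis elegans, while its KEGG assignment is a glutaredoxin (GLRX) and its GO terms name both lactoylglutathione lyase and protein-disulfide reductase activity. FPKM levels were 280, 277 and 270 in NR cultures 1 to 3. In ND cultures 1 to 3 they were 281, 286 and 304. The highest fed culture and the lowest deprived culture were thus nearly equal, with 280.25 and 280.59 FPKM. In all 6 libraries glod-4 lay above 96.6% to 97.4% of genes by TPM.

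In normalised CPM glod-4 fell from 510 ± 16.5 to 428 ± 16.2, a change of -0.25 ± 0.05 (edgeR adjusted p = 0.000101). With library totals alone the same gene had +0.06 ± 0.05 (edgeR adjusted p = 0.205) and with limma on log2(FPKM + 1) +0.07 ± 0.04 (adjusted p = 0.179). Measured against the median of all genes in the same fit, its change was -0.28, -0.28 and -0.27 in these 3 settings. The corresponding values were -1.29, -1.29 and -1.26 for DLD and 0.15 in all 3 for GLO1. The annotation gives glod-4 3 transcripts and each of the other genes 1. Its deposited length, an average over those transcripts, was 1904.57 to 1915.82 bases in NR and 1910.84 to 1920.37 in ND, ranges that overlap. All counts of glod-4 and DLD were whole numbers.

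**Figure D1:**
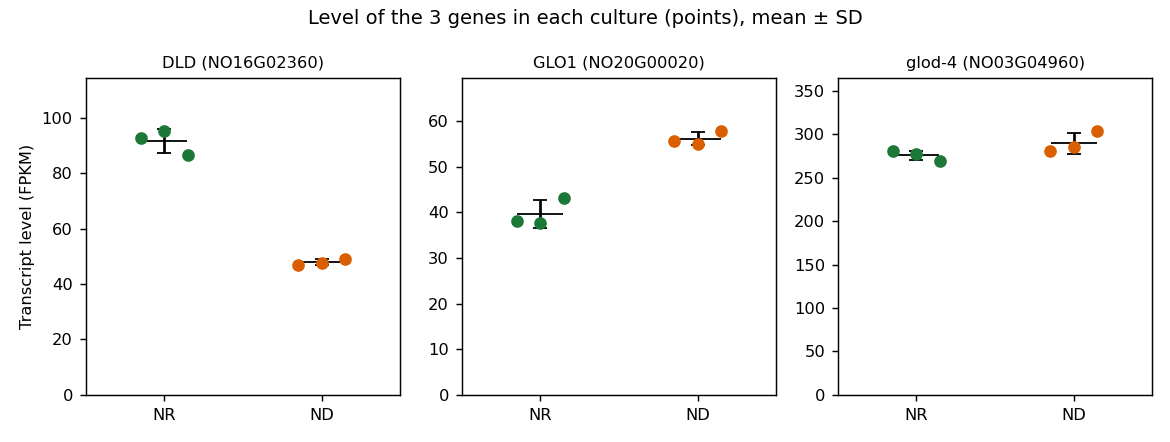
Level of DLD, GLO1 and glod-4 in FPKM (vertical axes, each from 0) in the 3 fed (NR) and 3 deprived (ND) cultures, with the mean and SD in black. DLD lies at 86.7 to 95.1 in NR and 46.8 to 49.0 in ND, GLO1 is higher in ND, and the glod-4 groups nearly touch; FPKM are scaled to library totals, and on the trimmed-mean scale glod-4 is lower in ND.

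Ratios within a culture compare the genes without any scaling between libraries. GLO1 to DLD was 0.413, 0.396 and 0.498 in NR cultures 1 to 3 and 1.19, 1.15 and 1.18 in ND cultures 1 to 3. The order of the genes by FPKM was thus glod-4, DLD, GLO1 in every fed culture and glod-4, GLO1, DLD in every deprived one. On the log2 scale the ratio was -1.21 ± 0.18 in NR and 0.23 ± 0.02 in ND (SD, n = 3), a shift of 1.44 ± 0.10 (SE) or 2.71 times. In ND the levels of GLO1 and DLD lay closer together than in NR, but no deprived culture had GLO1 below DLD. The 95% counting intervals of both genes overlapped in each ND library. In ND culture 1, for example, they were 352 to 431 counts for GLO1 and 316 to 391 for DLD. These are intervals of counts, not scaled by gene length, which was 1866 bases for GLO1 and 1986 for DLD. Overlap within a library is not a test of the order over the ND cultures. In ND cultures 2 and 3 part of the GLO1 reads was also apparently shared with NCOA7, while the count in ND culture 1 was whole. The order of GLO1 and DLD in ND was thus the same in every culture by FPKM but was not tested.

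The ratio of glod-4 to DLD was 3.03, 2.91 and 3.11 in NR and 6.00, 5.99 and 6.19 in ND. It doubled with little spread, by 1.01 ± 0.03 on the log2 scale or 2.01 times. Between the glyoxalases, GLO1 to glod-4 was 0.136, 0.136 and 0.160 in NR and 0.198, 0.193 and 0.190 in ND, a shift of 0.43 ± 0.08 or 1.35 times. None of the 3 ratios overlapped between conditions. Non-overlap was frequent for single genes, at 78.8% of tested genes by FPKM, and its share among other pairs of genes was not computed. A two-sided exact permutation test gave p = 0.1 for each, and 0.1 adjusted over the 3, which is the smallest value that 3 against 3 libraries allow.

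**Figure D2:**
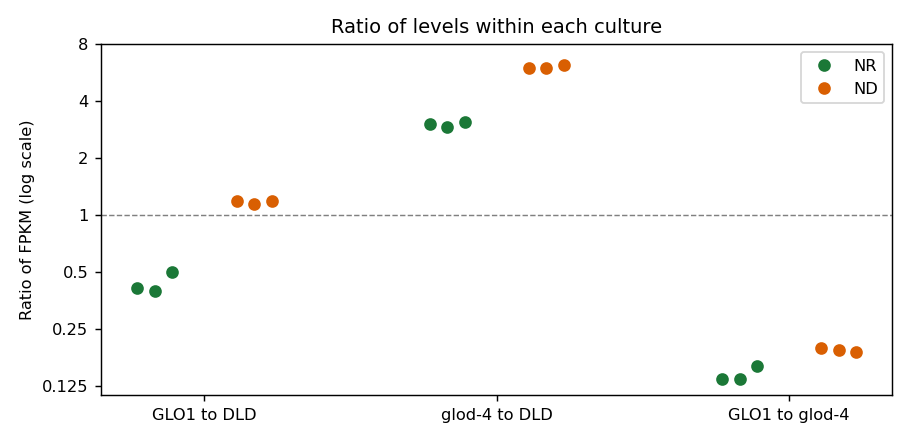
Ratio of FPKM between pairs of the 3 genes (vertical axis, log scale) within each culture, NR in green and ND in orange; the dashed line marks equal levels. GLO1 to DLD crosses that line, from 0.396 to 0.498 in NR to 1.15 to 1.19 in ND, and the other ratios stay on their side of it.

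The wider set of lactate and methylglyoxal genes, matched on the annotated description, held 15 models, all tested. Of these 3 were called higher, 5 lower and 7 not called, which is 53.3% called against 71.2% of all genes, with a median change of 0.01 against 0.02. With library totals alone 9 were higher and 3 lower, beside 5075 and 2149 of all genes. The 12 models other than the 3 genes above had 2 higher and 3 lower.

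On the supply side, 7 models carried the name of a glyoxalase or lactoylglutathione lyase. Of these, KEGG assigns only GLO1 and At1g67280 (NO26G00060) to glyoxalase I. It assigns NO07G03760 to yaeR and glod-4 to a glutaredoxin, and gives no assignment for NO10G00940, NO10G02910 and NO29G00650. Besides GLO1, the probable chloroplast lactoylglutathione lyase At1g67280 (NO26G00060, shared reads) was called higher, with 77.4 ± 2.10 FPKM in NR and 114 ± 5.70 in ND and a change of +0.23 ± 0.06 (edgeR adjusted p = 0.000879). The next most abundant model after glod-4, NO29G00650, had 173 ± 13.2 FPKM in NR and 202 ± 13.3 in ND and was not called (+0.03 ± 0.06). NO10G00940 (+0.01 ± 0.07), NO10G02910 (+0.36 ± 0.23) and NO07G03760 (-0.21 ± 0.17) were not called either, and all 3 had shared reads. Thus 2 of 7 were called higher and 1 lower, or 42.9% called against 71.2% of all genes. With library totals alone 5 were higher and 0 lower, or 71.4% called against 77.4%.

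Taken as a sum of FPKM, the 7 models reached 667, 651 and 683 in NR and 757, 777 and 823 in ND. The share of glod-4 in that sum was 39.5% to 42.6% in NR and 36.7% to 37.1% in ND, and that of GLO1 5.73% to 6.32% and 7.03% to 7.35%. The sum was 6.85 to 7.88 times the level of DLD in fed cultures and 16.2 to 16.8 times in deprived ones. FPKM are scaled to library totals, and on that scale the median log2 change of all tested genes was 0.34, so a higher sum in ND is not a rise relative to other genes. The largest part of the sum, glod-4, is assigned by KEGG to a glutaredoxin, and only GLO1 and At1g67280 are assigned to glyoxalase I. These sums rest on annotation by similarity and were not tested.

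Glyoxalase II, the enzyme that releases D-lactate, was annotated as hagh (NO02G05190). It had 84.1, 83.1 and 84.2 FPKM in NR and 111, 112 and 121 in ND. On the trimmed-mean scale it was not called (+0.11 ± 0.07, edgeR adjusted p = 0.148), and with library totals alone it was +0.43 (adjusted p = 1.47e-05). The DJ-1 homologue DJ1B (NO01G00450) rose from 98.2 ± 10.3 to 149 ± 14.7 FPKM (+0.32 ± 0.09, edgeR adjusted p = 0.0026).

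A different route to D-lactate is the NAD-linked reduction of pyruvate, the reaction of bacterial ldhA. The model assigned to that enzyme by KEGG, ddh (NO01G05200), had 32.7, 32.3 and 34.6 FPKM in NR and 10.5, 9.65 and 10.1 in ND. All deprived cultures were at about the same low level, and the change was -2.0 ± 0.11 (edgeR adjusted p = 6.69e-13). The other D-2-hydroxyacid dehydrogenase named ddh (NO24G00160, shared reads) changed by -0.35 ± 0.07 (adjusted p = 0.000259), and by -0.03 with library totals alone, where it was not called. The model serA (NO23G01370), annotated as a phosphoglycerate dehydrogenase and assigned by KEGG to glyoxylate and hydroxypyruvate reductase, had 6.13 ± 2.32 FPKM in NR and 10.3 ± 2.04 in ND (+0.51 ± 0.25, not called). This value depended on single cultures, with +0.21 without NR culture 1 and +0.73 and a call without NR culture 2, and it was called with library totals alone (+0.83), with upper-quartile factors (+0.62), in limma on log2(FPKM + 1) (+0.70) and with a replicate block (+0.50).

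On the side of hydroxy-acid oxidation another model of the list besides DLD was called lower, as were 35.5% of all tested genes. The peroxisomal (S)-2-hydroxy-acid oxidase GLO4 (NO15G00160), of the glycolate oxidase family, went from 48.8 ± 6.45 to 17.1 ± 0.47 FPKM. With trimmed-mean scaling its change was -1.84 ± 0.11 (edgeR adjusted p = 2.64e-12), and with library totals alone -1.53. Its relative NO02G03110 shares the symbol GLO1 with the glyoxalase but is also annotated as a (S)-2-hydroxy-acid oxidase. It had 8.95 ± 0.77 FPKM in NR and 11.1 ± 0.27 in ND, and was not called (-0.01 ± 0.13, and +0.30 with a call under library totals alone).

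After their values had been seen, 3 models tied to these reactions only by KEGG or GO were added. NO19G00920 is in the same KEGG orthology group as DLD, while its GO terms name an aldonolactone oxidase. It had 118, 133 and 126 FPKM in NR and 28.8, 25.5 and 27.1 in ND, and the change was -2.54 ± 0.07 (edgeR adjusted p = 3.22e-17). By FPKM it was therefore above DLD in each fed culture and below it in each deprived one. NO14G01000, with a GO term of lactate racemase, was at -0.04 ± 0.12 (+0.27 with library totals alone), and coq10b-a (NO07G03770, shared reads), a coenzyme Q-binding protein with a lactoylglutathione lyase term, at -0.16 ± 0.16. Neither of the last 2 was called.

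**Figure D3:**
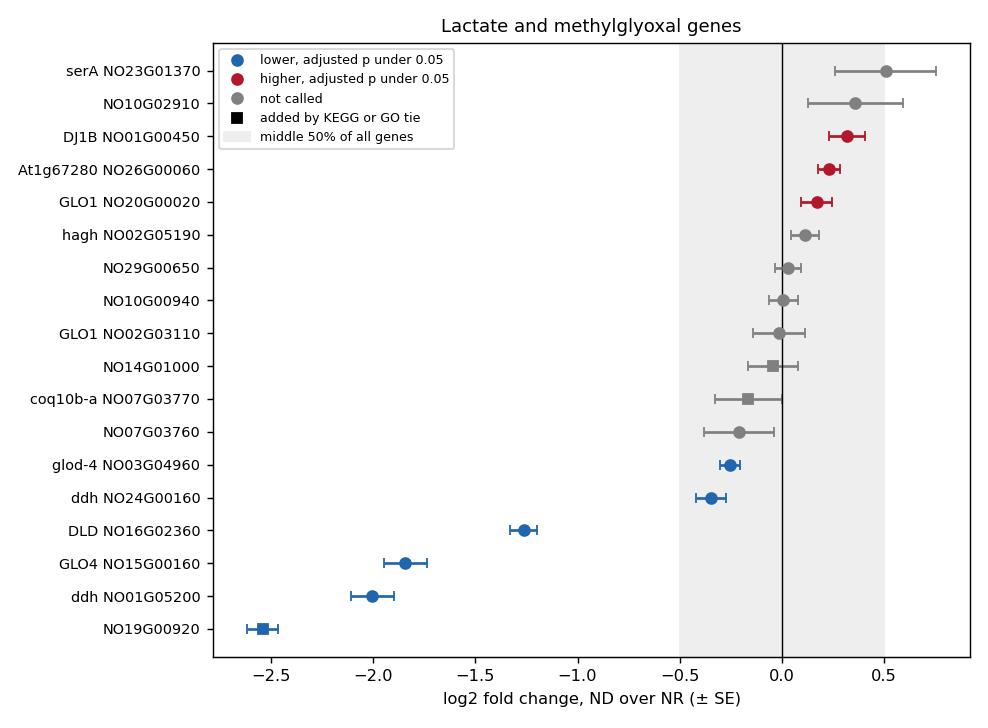
Change of 18 lactate and methylglyoxal models (rows) as log2 fold change of ND over NR (horizontal axis, bars are SE), with edgeR and trimmed-mean scaling. Squares mark the 3 models added by KEGG or GO, and the grey band spans the quartiles of all tested genes, from -0.50 to 0.50; DLD, GLO4, ddh (NO01G05200) and NO19G00920 lie left of it.

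Around these reactions, the supply of glutathione, the thiol that glyoxalases use, was covered by 8 models, of which 6 were tested. Of these 1 was called higher and 4 lower, or 83.3% called against 71.2% of all genes, with a median of -0.27. Under library totals alone 2 were higher and 2 lower, or 66.7% called against 77.4%. Of a pair of models of the glutamate-cysteine ligase Gclc, which catalyses the first step of glutathione synthesis, NO12G03690 rose from 7.75 ± 0.98 to 25.8 ± 0.39 FPKM (+1.40 ± 0.13), while NO25G01780 was not called (+0.08 ± 0.09). Both glutathione reductases were lower, gsr (NO01G04630) by -0.45 ± 0.05 and gor (NO05G04920) by -0.60 ± 0.07. Of the glutathione synthetases named GSH2, NO07G01160 changed by -0.36 ± 0.07, and by -0.04 with library totals alone, without a call, and NO13G02400, at -0.18 ± 0.07, also lost its call there.

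Enzymes of the triose phosphates, the source of methylglyoxal, had 6 of 19 models higher and 9 lower, or 78.9% called against 71.2% of all genes. When only library totals were used, 10 were higher and 6 lower, or 84.2% against 77.4%. The text match took in 3 methyltransferases, without which 4 of 16 were higher and 8 lower. The aldolase FBA6 (NO19G01750) rose from 304 ± 9.12 to 1262 ± 67.3 FPKM. The aldolase FBA8 (NO01G03170, shared reads) fell from 90.6 ± 3.97 to 13.5 ± 2.92 FPKM, while the next model of that name (NO01G03180, shared reads) was not called (-0.01 ± 0.14). The glyceraldehyde-3-phosphate dehydrogenase GAPC1 (NO27G00910) fell from 392 ± 13.8 to 162 ± 1.78 FPKM, while the next model, GAPDH (NO27G00920), was called higher (+0.31 ± 0.04). Of the chloroplast phosphoglycerate kinases named PGK, NO06G04120 changed by -1.31 ± 0.06 and NO20G00840 the other way, by +0.96 ± 0.10.

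Around pyruvate, the product of lactate oxidation, the text match took in 31 models, of which 17 were higher, 7 lower and 7 not called, with a median of 0.35. That is 77.4% called against 71.2% of all genes, and with library totals alone 27 were higher and 2 lower, beside 54.4% and 23.0% of all genes. Of these, 8 are not enzymes that make or use pyruvate, namely 4 kinases of pyruvate dehydrogenase, 2 mitochondrial pyruvate carriers, the phosphoenolpyruvate carboxykinase pckA and the phosphoenolpyruvate carboxylase ppc (NO11G00760, +1.31 ± 0.05). Without them 13 of 23 were higher and 4 lower, or 73.9% called, with a median of 0.36. A malic enzyme (NO26G00480), which forms pyruvate from malate, rose from 21.5 ± 4.18 to 102.5 ± 2.68 FPKM (+1.91 ± 0.09). The pyruvate decarboxylase PDC4 (NO04G01610, +0.89 ± 0.05, shared reads) and the pyruvate dehydrogenase component PDHX (NO13G01210, +1.21 ± 0.07) also rose. Of other models in the list, PDHB (NO01G00430, +0.92 ± 0.06) was called higher, and those named PDHA (NO01G03940, -0.04 ± 0.07, and NO01G03950, -0.05 ± 0.06) were not called. Of those named DLAT or Dlat, NO03G01630 was not called (-0.02 ± 0.09), while NO05G03610 (+0.14 ± 0.06) and NO09G03340 (+0.85 ± 0.11) were called higher. EMB3003 (NO18G02350) was called lower (-0.58 ± 0.05). The KEGG map of pyruvate metabolism, which holds DLD and GLO1 but not glod-4, had 27 of 62 tested genes higher and 22 lower (40 and 16 with library totals alone), or 79.0% called against 71.2% of all genes.

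Cytochrome c (NO28G00900), the electron acceptor of this type of dehydrogenase in plants and yeast, rose while DLD fell. Its FPKM levels were 51.9, 60.8 and 59.2 in NR and 167, 172 and 173 in ND, and the change was +1.16 ± 0.13 (edgeR adjusted p = 7.59e-08). The mitochondrial cytochrome c peroxidase ccp1 (NO03G02490) fell by 0.66 ± 0.05, and the cytochrome c oxidase subunit COX12 (NO16G01610) was not called (-0.10 ± 0.06, and +0.22 with a call under library totals alone). These 3 were all the models that the description matched.

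Histone acetyltransferases, deacetylases and alanine-tRNA ligases, families with members reported in animals or bacteria to add or remove lactyl groups, were listed as 24 models. Of these 8 were higher, 7 lower and 9 not called, or 62.5% called against 71.2% of all genes, with a median of -0.03. Scaled by library totals alone, 16 were higher and 4 lower, or 83.3% called against 77.4%. The text match took in 3 phenylalanine-tRNA ligases and 1 subunit of a deacetylase complex, without which 7 of 20 were higher and 5 lower, or 60.0% called. The models of the alanine-tRNA ligase ALATS, both with shared reads, went in opposite directions. NO08G02150 fell from 176 ± 3.15 to 106 ± 6.77 FPKM (-1.05 ± 0.05), and NO15G02480 was called higher (+0.35 ± 0.07). The type B histone acetyltransferase HAT1 (NO22G01630, shared reads) changed by -0.68 ± 0.06. The histone deacetylase-like PA3774 (NO05G04890, +0.94 ± 0.10) rose. Of 3 models named GCN5 after the acetyltransferase, NO12G02280 (shared reads), which KEGG assigns to other proteins, MBD9 and CTDSPL2, was called higher (+0.50 ± 0.06). NO08G03320 (-0.06 ± 0.07, shared reads) and NO09G02940 (-0.14 ± 0.07) were not called. No lactyl group or enzyme activity was measured in these libraries.

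**Figure D4:**
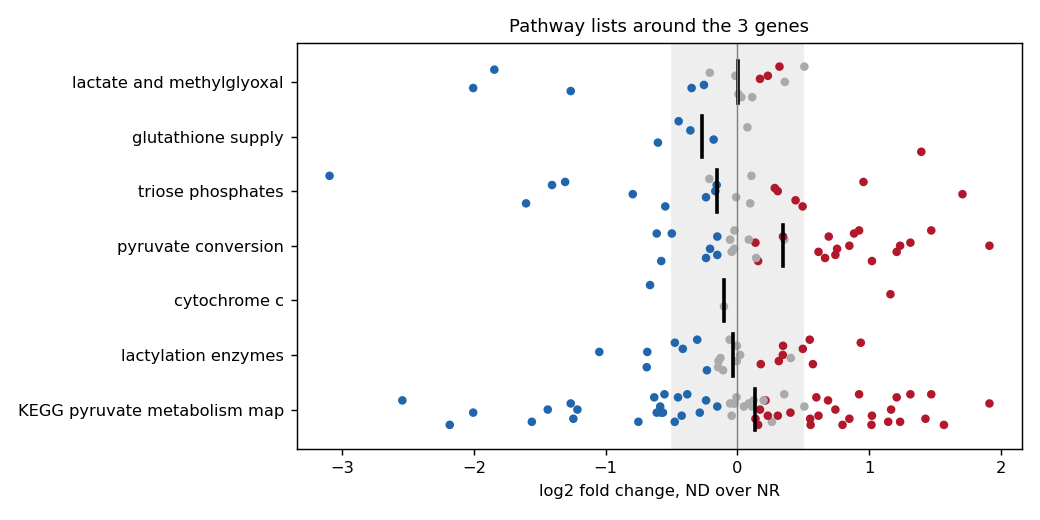
Log2 fold change of ND over NR (horizontal axis) for each tested gene of 7 lists (rows), red when called higher, blue when called lower and grey when not called, with the list median as a black bar. The medians run from -0.27 for glutathione supply to 0.35 for pyruvate conversion, beside 0.02 for all genes, whose quartile range is shaded.

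Genes with the pattern most like each of the 3 were sought among 5899 other tested genes with a description, by the root mean square difference of centred log2 normalised CPM over the 6 libraries. DLD was closest to FOLD2 (NO06G02740, difference 0.033, change -1.21, shared reads), a bifunctional enzyme of folate metabolism. Next came the phosphoglycerate kinase PGK named above (0.038) and the homogentisate solanesyltransferase HST (NO03G05740, 0.040, change -1.32). GLO1 was closest to a crystallin J1A model (NO30G01240, 0.026), the ABC transporter ABCE2 (NO16G02500, 0.026) and the beta-carotene isomerase D27 (NO05G04060, 0.029, shared reads), none of which was called. Closest to glod-4 were the NAD(H) kinase NADK1 (NO19G00230, 0.020), the adaptor subunit apm1 (NO09G01380, 0.022) and an importin alpha (NO11G01970, 0.031), with changes of -0.26, -0.29 and -0.22 that, like that of glod-4, lay above 0 without a call under library totals alone. The 6 libraries fall in only 2 conditions, so genes with a like difference between conditions score as alike.

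The models next to DLD in order of identifiers did not share a direction. The translation factor subunit eif3l (NO16G02350) changed by +0.24 ± 0.06 and the uridine kinase udk (NO16G02370) by -0.95 ± 0.09. Beside glod-4, NO03G04950 and NO03G04970, both without a description, changed by +0.48 ± 0.08 and +1.44 ± 0.24.

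**Figure D5:**
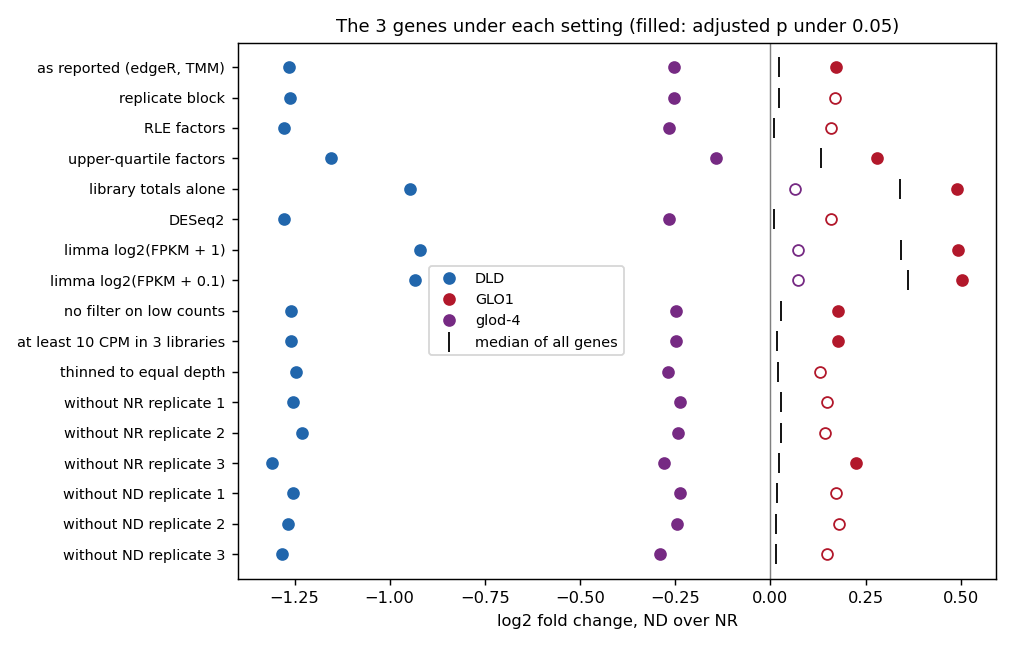
Log2 fold change of ND over NR (horizontal axis) of DLD, GLO1 and glod-4 under 17 settings (rows), filled where the adjusted p was under 0.05, with the median of all genes as a black bar. DLD stays between -1.31 and -0.92 and called, the call of GLO1 comes and goes, and glod-4 crosses 0 with library totals and in both FPKM fits, where the median of all genes lies at 0.34 to 0.36.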

How the data were processed

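For each library the deposited table gives every gene an expected count, which is estimated and not normalised, per the file headers. The TPM and FPKM deposited beside it take account of effective length and of the library total, per the file headers. A deposited comparison of 2057 genes holds log2 changes, each with its p-value and FDR, per the file headers. The submitters' processing notes name edgeR, featureCounts, Picard, STAR, StringTie and Trim Galore without roles or versions. Neither the build nor the estimation tool is stated in the labels or headers, and 0 gene identifiers matched the 160 reference genes, so no coordinates or sequences are shown.

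Counts were rounded and tested across all genes with edgeR 4.0.16 (filterByExpr, TMM, quasi-likelihood F test, Benjamini-Hochberg adjustment at 0.05) in R 4.3.3, without a replicate block. The procedure was tested on simulated data. The SE is the absolute log2 change over the square root of F. Shared reads marks genes whose counts were not all whole within 0.005. Ratios used FPKM and exact permutation tests (SciPy 1.17.1). Alternatives used DESeq2 1.42.0 and, on log2(FPKM + 1) or log2(FPKM + 0.1), limma 3.58.1 for genes of at least 1 FPKM in 3 libraries. The members and lists were chosen with earlier results of these data known. Named genes are the 3 genes, all lactate and methylglyoxal models, and the 4 smallest p-values of each other description list. The 3 closest patterns per gene and NIA were also named. Other models were chosen after their values were seen. These are neighbouring models, others that share a named gene's symbol, and further pyruvate dehydrogenase models. They also include the models set apart from lists for their role, and KEGG or GO additions.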

Additional observations from a re-analysis of the deposited data

How the results depend on the processing

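DLD kept its direction and call in all 16 alternatives, from -1.31 to -0.92. GLO1 kept its direction but lost its call with a replicate block (0.17, adjusted p = 0.0535), RLE factors (0.16), DESeq2 (0.16) and thinning (0.13), and ranged from 0.14 to 0.23 with a library left out. The sign of glod-4 reversed without a call with library totals (0.0648) and in limma with pseudocounts of 1 (0.0720) and 0.1 (0.0722); with a library left out it ranged from -0.29 to -0.24 and stayed called. In the same order, the other named genes that changed sign and were called on at least 1 side were NO02G03110 (0.30, 0.28 and 0.31), COX12 (0.22, 0.25 and 0.25), NADK1 (0.0543, 0.0574 and 0.0586), apm1 (0.0275, 0.0372 and 0.0380) and the importin alpha NO11G01970 (0.0938, 0.10 and 0.10), with NO14G01000 in limma alone (0.27 and 0.28). Of 43 other named genes, 26 kept their call throughout, and their direction where called. The lactate list had 7 to 12 members called. With DESeq2 it was 7 of 15, beside 5887 of 10136 genes. With library totals alone it was 12 of 15, or 80.0% against 77.4% of all genes. When the list was widened after the data were seen, 9 of 18 were called, or 50.0% against 71.2%. The number of genes called ran from 5887 of 10136 (DESeq2) to 7224 of 9329 (library totals). All 3 ratios kept their direction in every alternative, with exact p of 0.25 when same-numbered cultures were paired, the smallest 3 pairs allow. Deviations of same-numbered libraries correlated at 0.019, 0.036 and 0.089. Every library correlated best with its own number except ND culture 1, which was closest to NR culture 2 (0.026). The numbers were not taken to pair cultures because no label says so, and correlations this small do not decide it. The cause of these differences was not tested, beyond the shift of the median of all genes. Depth left counting errors of up to 6.4% per library for GLO1, beside a 1.13-fold difference.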
